A study of Homo sapiens with 24 samples.

Results

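The genes described here make cholesterol and fatty acids: 31 genes of the mevalonate pathway, the squalene and sterol steps, sterol regulation and transport, fatty acid synthesis, and fatty acid elongation, desaturation and activation. They were taken from a list of names, with the probe set of highest mean signal standing for each gene, and 29 of the 31 were measured among 11940 genes on the array, 20 of them by more than 1 probe set. FDFT1 and ACSL3 were not analysed here. Expression had been profiled in A2780 cells, a human ovarian carcinoma line, on 24 Affymetrix arrays.

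Rab25 cells expressed the small GTPase RAB25, which acts in the recycling of endosomes, and pcDNA cells carried the empty vector. Both lines had spent 8 h without serum before a treatment was added. Treatments were EGF at 10 ng/ml, IGF at 10 ng/ml, TGF beta at 5 ng/ml or fetal bovine serum (FBS) at 5%. Starved arrays had the 8 h without serum and none of these. The labels give no later time for them, so whether they were harvested together with the treated arrays is not known. Each line had 2 arrays per treatment, 1 in each of 2 experiments, and 4 starved arrays, 2 in each experiment. Exposure lasted 24 h in experiment 2 and 8 h in experiment 1 by the treatment protocol, whereas the source names give 24 h for both, so exposure time and experiment cannot be told apart. Each line was a single transfected line, and the labels do not say whether it was a clone or a pool, so a difference between the lines includes whatever else set them apart. The submitters call the 24 samples independent; p-values measure the spread between these arrays.

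Cholesterol is built from acetyl-CoA through mevalonate, isoprenoid units, squalene and lanosterol, and fatty acids from acetyl-CoA through malonyl-CoA. The genes of both routes are known targets of the sterol regulatory element binding proteins (SREBPs), of which SREBP-2, from SREBF2, acts mainly on the sterol genes and SREBP-1, from SREBF1, more on the fatty acid genes. When membranes hold enough sterol, INSIG1 keeps the SREBPs and their escort in the endoplasmic reticulum, and when sterol runs short they move to the Golgi, are cut and enter the nucleus.

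Most members fell with FBS in experiment 1, and promoters of 4 of these are shown as examples. Each is the 250 bases before a gene start in RefSeq on GRCh38.p14, 5′ to 3′ on the gene's own strand. Capitals mark a sterol regulatory element (TCACNCCAC) or a CCAAT box (CCAAT, or its reverse complement ATTGG), the site of nuclear factor Y, which is known to act beside SREBPs. SREBF2 lies at chr22:41832855-41833104 on the plus strand, MSMO1 at chr4:165327419-165327668 on the plus strand, NSDHL at chrX:152830813-152831062 on the plus strand and HMGCS1 at chr5:43313413-43313662 on the minus strand.
SREBF2: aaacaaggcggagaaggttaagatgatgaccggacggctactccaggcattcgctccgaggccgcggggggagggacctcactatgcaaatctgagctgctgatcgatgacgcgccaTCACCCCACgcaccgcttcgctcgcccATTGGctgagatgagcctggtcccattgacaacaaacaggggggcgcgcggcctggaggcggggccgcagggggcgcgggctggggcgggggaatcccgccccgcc
MSMO1: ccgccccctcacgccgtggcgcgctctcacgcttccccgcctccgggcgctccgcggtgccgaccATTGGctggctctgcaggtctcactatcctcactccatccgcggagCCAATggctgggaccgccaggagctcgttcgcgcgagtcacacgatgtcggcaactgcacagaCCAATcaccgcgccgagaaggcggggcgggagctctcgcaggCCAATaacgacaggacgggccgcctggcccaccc
NSDHL: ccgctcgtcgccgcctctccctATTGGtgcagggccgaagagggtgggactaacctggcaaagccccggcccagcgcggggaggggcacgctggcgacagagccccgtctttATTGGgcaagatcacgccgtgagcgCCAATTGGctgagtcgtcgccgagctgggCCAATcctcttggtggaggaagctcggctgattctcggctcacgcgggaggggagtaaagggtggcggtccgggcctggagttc
HMGCS1: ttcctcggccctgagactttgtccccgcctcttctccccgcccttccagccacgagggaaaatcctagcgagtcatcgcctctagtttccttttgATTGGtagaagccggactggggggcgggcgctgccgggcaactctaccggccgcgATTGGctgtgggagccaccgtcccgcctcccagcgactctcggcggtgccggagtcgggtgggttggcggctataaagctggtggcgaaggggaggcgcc

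The SREBF2 promoter held 1 sterol element and, downstream of it, 1 CCAAT box. MSMO1 held 4 CCAAT boxes, NSDHL 5, of which a pair overlaps in the palindrome CCAATTGG, and HMGCS1 2. Another HMGCS1 start, with its 250 bases at chr5:43313182-43313431, held 0. The 4 promoters shown all hold a CCAAT box, whereas those of CYP51A1, FADS1, NPC1 and SREBF1, which also fell, held 0. The 4 thus do not stand for all members that fell, and whether these sites bear on the fall was not tested. Motifs were searched on both strands in windows that run 250 bases before to 50 bases after the start, and 26 of the 29 measured members had a window. A CCAAT box was found in 20 of the 26 (76.9%) and in 44.4% of the 9593 array genes with a window. The GC box GGGCGG was found in 24 members (92.3%) and 69.7% of array genes, and the E-box CACGTG in 4 members (15.4%) and 11.8% of array genes. The sterol element in this strict spelling was found in 1 member (3.85%), SREBF2, and in 1.52% of array genes. CCAAT boxes stood in 16 of the 20 members with a window that fell with FBS in experiment 1, and in 4 of the 6 that did not pass the test there.

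Some facts of the whole series bear on these genes. RAB25 itself had a log2 signal of 8.18 to 9.08 on the 12 Rab25 arrays, against 4.90 to 5.6 on the 12 pcDNA arrays. KRT8, KRT18, PAX8 and VIM were high on all arrays, WT1 had a mean of 7.05, and MUC16 and CDH1 were near the lowest signals of the array in both lines. EPCAM was as low on the 22 arrays other than the Rab25 FBS ones (at most 5.29). It had 8.49 on the Rab25 FBS array of experiment 1 and 5.12 on that of experiment 2. Both Rab25 FBS arrays stood apart: with FBS in Rab25 cells, 10 of 12 macrophage and blood markers, 6 of 11 stroma and vessel markers, 4 of 12 breast epithelium markers and 2 of 12 adipocyte markers were higher, and in pcDNA cells 0 of each list passed the test. Of all 11940 genes, 922 (7.72%) were called in Rab25 cells, 315 of them higher, and 806 (6.75%) in pcDNA cells, 276 of them higher. The mean level of the stroma and vessel list was 8.55 and 9.78 on the Rab25 FBS arrays of experiments 2 and 1, against 6.66 to 7.23 on the 22 other arrays. The 2 arrays did not carry the same markers. AGR2, a gene of secretory epithelium, had 9.68 on the Rab25 FBS array of experiment 1 and 5.14 on that of experiment 2, against at most 5.27 on the 22 other arrays. FABP4, of the adipocyte list, had 7.54 and 10.42 in experiments 1 and 2, against at most 7.16. KRT5, KRT15 and LTF, of the breast list, were on neither array above the highest of the 22 others. Results with FBS are therefore also given for pcDNA cells alone or without those arrays. In bulk RNA, fewer cells of a type and less RNA per cell cannot be told apart.

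Signals of 20 members come from the brightest of several probe sets, and signals are not set against each other between genes. SC5D, the sterol C5 desaturase, had a mean log2 signal of 6.09 on a scale that ran from 4.18 to 15.39, near background, so little can be read from it. Probe sets for IDI1 and HSD17B7 are of the type that may bind related transcripts. Between the paired starved arrays within a line and experiment the median difference over the 29 members was 0.08 (log2), and the largest was 0.66, for SREBF1.

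The strongest pattern was a fall of most members with FBS in experiment 1, among them nearly all genes of the sterol route. It was nearly absent in experiment 2. With FBS in experiment 2, 2 of 29 members passed the test, NSDHL and FASN, both higher, which is near the 8.25% of all genes called. With FBS in experiment 1, 23 of 29 members fell and 0 rose, against 34.1% of all genes called, 17.1% lower and 17% higher. The median change of the 29 members was 0.06 in experiment 2 and -0.89 in experiment 1 (log2), beside -0.04 and -0.02 over all genes. Among the 23, 12 fell by at least a factor of 2. Here the test was limma with an experiment term for each condition, fitted on all genes and arrays, with Benjamini-Hochberg adjusted p under 0.05. This split by experiment was added after the data were seen, and each experiment holds 2 FBS arrays, 1 per line.

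**Figure D1:**
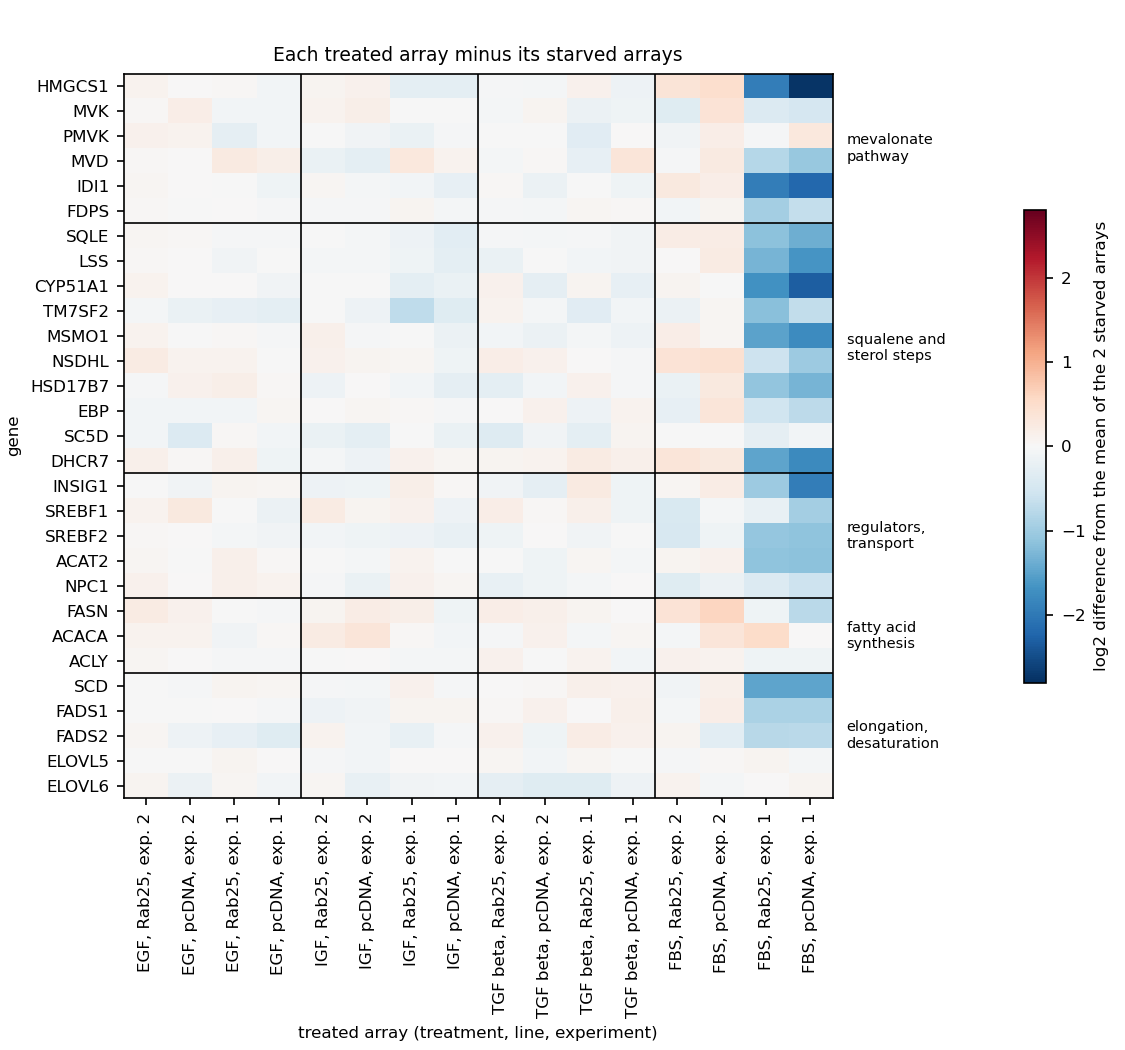
Log2 difference of each of the 16 treated arrays from the mean of the 2 starved arrays of its line and experiment (columns) for the 29 measured genes (rows, in groups by role). The 2 columns of FBS in experiment 1 are blue for most genes, with a lowest value of -2.75 for HMGCS1, and the other 14 columns lie between -0.71 and 0.60.

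The fall was present in both lines. On the Rab25 FBS array of experiment 1, 26 of 29 members were below the mean of their starved arrays, with a median of -0.89, and on the pcDNA FBS array 26 of 29, with a median of -0.96. Of the 29 members, 13 were lower by more than 1 (log2) on the Rab25 array and 14 on the pcDNA array, while 1.01% and 2.19% of all genes were. Both FBS arrays of experiment 1 lay below all 22 other arrays for 20 of 29 members, and this held for 4.65% of all genes. With both Rab25 FBS arrays left out, experiment 1 holds 1 FBS array, so only the size of the change is given for that case. With all arrays, FBS against starved in experiment 1 also gave higher values for 7 of 12 breast, 7 of 12 macrophage and blood and 6 of 11 stroma and vessel markers. Of all genes, 17% were called higher there. On the pcDNA FBS array of experiment 1 the stroma list averaged 6.96 and the macrophage list 5.45, within or below the starved arrays (6.82 to 7.23 and 5.47 to 5.61), and the breast list 5.97, against 5.69 to 5.94 in starved cells. The members' median change on that array was -0.96, beside -0.02 over all genes.

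In the mevalonate pathway, 5 of 6 members fell with FBS in experiment 1. HMGCS1, which makes HMG-CoA, had 11.52 and 12.03 on the Rab25 and pcDNA FBS arrays of experiment 2, against 11.15 and 11.16 in starved Rab25 and 11.61 and 11.51 in starved pcDNA cells. In experiment 1 HMGCS1 had 8.75 and 8.32 with FBS, against 10.86 and 10.52 in starved Rab25 and 11.04 and 11.10 in starved pcDNA cells. The FBS arrays of experiment 1 were thus the lowest of all 24 for this gene, and those of experiment 2 lay above the starved arrays of their own lines. Its change was 0.42 in experiment 2 (SE 0.14, limma adjusted p = 0.0949) and -2.35 in experiment 1 (SE 0.14, limma adjusted p = 1.9e-07), a 5.09-fold decrease.

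IDI1, which interconverts the isoprenoid building blocks, had 13.02 and 13.49 on the Rab25 and pcDNA FBS arrays of experiment 2, against 12.80 and 12.68 in starved Rab25 and 13.37 and 13.21 in starved pcDNA cells. In experiment 1 its values with FBS were 10.62 and 10.64, against 12.55 on both Rab25 starved arrays and 12.87 and 12.80 on the pcDNA starved arrays. On both FBS arrays of experiment 1 the gene lay far below every starved array, with differences of -1.93 in Rab25 and -2.19 in pcDNA cells. The change of IDI1 was 0.24 in experiment 2 (SE 0.11) and -2.06 in experiment 1 (SE 0.11, limma adjusted p = 7.7e-08). Of the others, MVD (mevalonate diphosphate decarboxylase) changed by -0.93, FDPS (farnesyl diphosphate synthase) by -0.81 and MVK (mevalonate kinase) by -0.44, all called, whereas PMVK (phosphomevalonate kinase) was not called at 0.13 (95% interval -0.03 to 0.29). The calls of MVD and MVK were lost without the pcDNA FBS array of experiment 1, where the fit takes the missing difference between the FBS arrays of the lines from experiment 2.

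Among the 10 measured genes of the squalene and sterol steps, 9 fell with FBS in experiment 1. MSMO1, the sterol C4 methyl oxidase, had 12.86 and 13.20 on the Rab25 and pcDNA FBS arrays of experiment 2, against 12.70 and 12.67 in starved Rab25 and 13.14 on both pcDNA starved arrays. In experiment 1 it had 11.16 and 11.24 with FBS, against 12.66 and 12.64 in starved Rab25 and 13.00 and 12.98 in starved pcDNA cells. Starved pairs of MSMO1 differed by at most 0.02, and the change of -1.62 (SE 0.06, limma adjusted p = 7.1e-09) was the member change of lowest p. CYP51A1, the lanosterol demethylase, had 9.35 and 8.89 with FBS in experiment 1, against 11.05 and 11.03 in starved Rab25 and 11.28 and 11.13 in starved pcDNA cells. SQLE, which oxidises squalene, had 11.85 and 11.81 with FBS in experiment 1, against 13.01 and 12.97 in starved Rab25 and 13.27 and 13.10 in starved pcDNA cells. For both genes the FBS arrays lay well apart from the starved arrays.

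CYP51A1 changed by 0.02 in experiment 2 (SE 0.15) and by -2.0 in experiment 1 (SE 0.15, limma adjusted p = 7.7e-07), and SQLE by 0.21 (SE 0.11) and -1.26 (SE 0.11, limma adjusted p = 2.1e-06). The remaining sterol genes that fell in experiment 1 were DHCR7 (7-dehydrocholesterol reductase) by 1.63, LSS (lanosterol synthase) by 1.47, HSD17B7 (a sterol 3-keto reductase) by 1.21, TM7SF2 (a sterol C14 reductase) by 0.93, NSDHL (the sterol C4 decarboxylase) by 0.80 and EBP (the sterol isomerase) by 0.64. The call of EBP was lost without the pcDNA FBS array of experiment 1. SC5D, at -0.17 (95% interval -0.43 to 0.10), was not called.

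**Figure D2:**
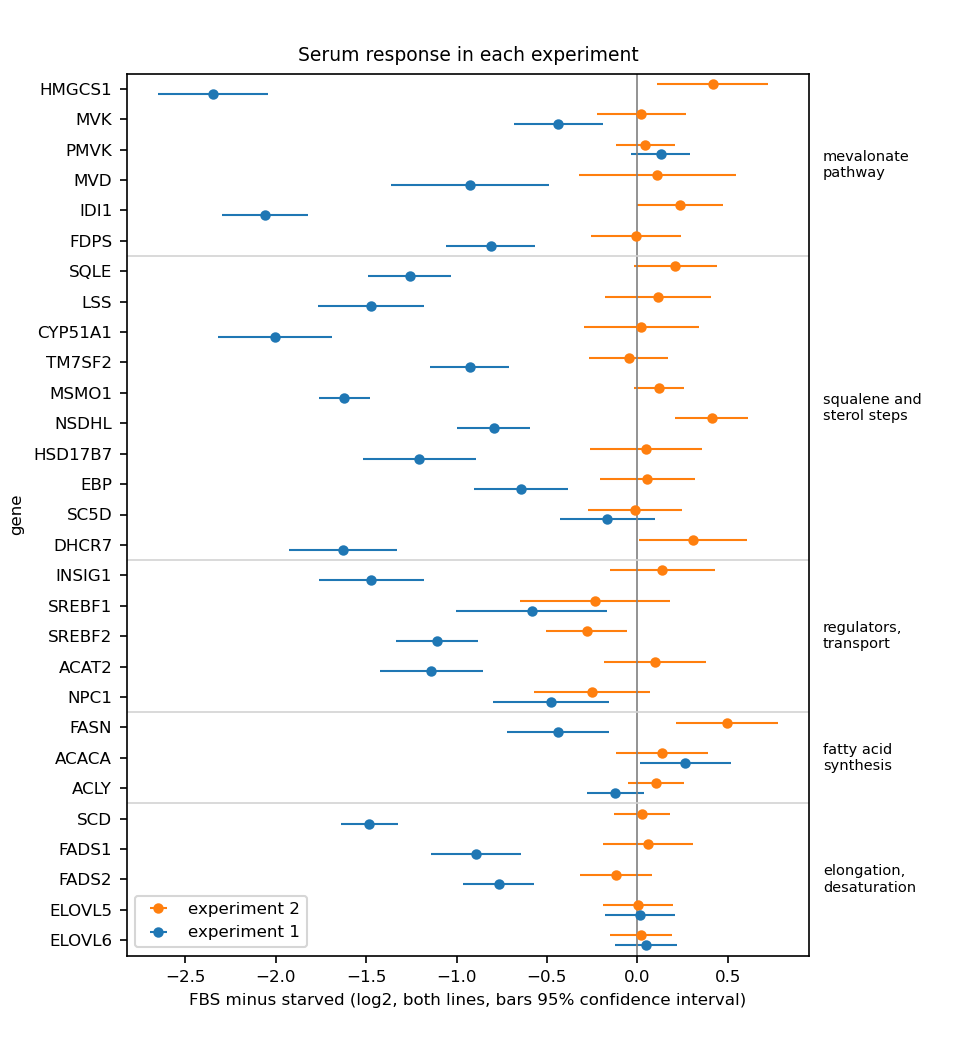
FBS minus starved (log2, x axis) over both lines in experiment 2 (orange) and experiment 1 (blue) for each gene (y axis), with 95% confidence intervals from the fit with an experiment term for each condition. In experiment 1 HMGCS1, IDI1 and CYP51A1 lie at -2.35, -2.06 and -2.0, while ACACA, ACLY, ELOVL5 and ELOVL6 stay between -0.12 and 0.27.

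All 5 members of the regulator and transport group fell with FBS in experiment 1. INSIG1, the sterol-sensing retention protein, changed by 0.14 in experiment 2 and by -1.47 in experiment 1 (SE 0.13, limma adjusted p = 3.8e-06). SREBF2 changed by -0.28 in experiment 2 (not called, adjusted p = 0.132) and by -1.11 in experiment 1 (SE 0.10, limma adjusted p = 5.2e-06). ACAT2, the cytosolic acetyl-CoA acetyltransferase that feeds the pathway, fell by 1.14 in experiment 1. SREBF1 (-0.58) and NPC1 (-0.48), which exports cholesterol from lysosomes, moved least, and both calls were lost without the pcDNA FBS array of experiment 1 or without some single starved arrays of that experiment. INSIG1 differed from its starved arrays by -1.01 on the Rab25 and -1.94 on the pcDNA FBS array of experiment 1. Each value rests on 1 FBS array, and the Rab25 one carries the markers of other tissues.

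Fatty acid genes split by step. Of the 3 synthesis genes 1 passed the test in experiment 1: FASN (fatty acid synthase) changed by 0.50 in experiment 2 (SE 0.13, limma adjusted p = 0.0324) and by -0.44 in experiment 1 (SE 0.13, limma adjusted p = 0.0189). In experiment 2 FASN had 10.99 and 11.66 with FBS, against 10.59 and 10.61 in starved Rab25 and 11.09 and 11.01 in starved pcDNA cells, and both FBS arrays lay above their starved arrays. In experiment 1 FASN had 10.03 and 9.82 on the Rab25 and pcDNA FBS arrays, against 10.20 and 10.09 in starved Rab25 and 10.57 and 10.59 in starved pcDNA cells. FASN differed from its starved arrays by -0.12 on the Rab25 and -0.76 on the pcDNA FBS array of experiment 1, and was not called without the pcDNA array.

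ACACA (acetyl-CoA carboxylase), at 0.27 in experiment 1 (95% interval 0.01 to 0.52, adjusted p = 0.102), and ACLY (ATP citrate lyase), at -0.12 (95% interval -0.28 to 0.04), were not called. Of the desaturases, SCD (stearoyl-CoA desaturase) had 11.16 and 11.84 on the Rab25 and pcDNA FBS arrays of experiment 1, against 12.63 and 12.65 in starved Rab25 and 13.36 and 13.29 in starved pcDNA cells. Its change was 0.02 in experiment 2 and -1.48 in experiment 1 (SE 0.07, limma adjusted p = 4.2e-08), and -1.48 in each line. FADS1 and FADS2, the delta-5 and delta-6 desaturases, fell by 0.89 and 0.77 in experiment 1, with nearly equal changes in the lines. The elongases ELOVL5 (0.02, 95% interval -0.18 to 0.21) and ELOVL6 (0.05, 95% interval -0.12 to 0.22) were not called.

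**Figure D3:**
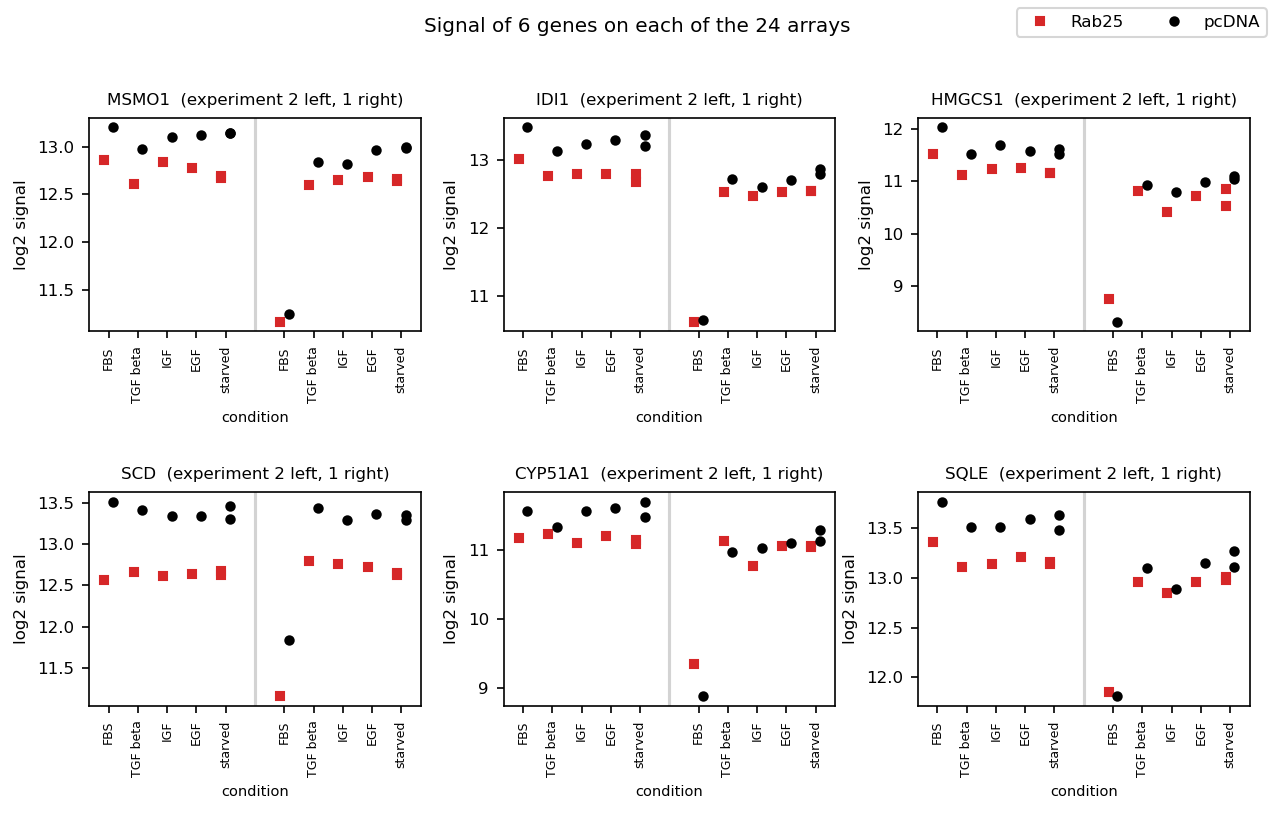
Log2 signal (y axis) of the 6 genes of lowest p for FBS in experiment 1, on each array, by condition (x axis) for experiment 2 (left) and experiment 1 (right), with Rab25 arrays as red squares and pcDNA arrays as black circles. The FBS points of experiment 1 lie apart below the others in each panel, for MSMO1 at 11.16 and 11.24.

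The response to FBS differed between the experiments for 20 of 29 members (FBS response in experiment 2 minus that in experiment 1), all with a higher value in experiment 2, against 22.5% of all genes. The difference was 2.76 for HMGCS1 (SE 0.20, limma adjusted p = 4.1e-06), 2.29 for IDI1, 2.03 for CYP51A1, 1.93 for DHCR7 and 1.74 for MSMO1 (SE 0.09, limma adjusted p = 3.3e-07). Members not called were MVK, PMVK, SC5D, SREBF1, NPC1, ACACA, ACLY, ELOVL5 and ELOVL6. A moderated F test over the 4 treatments together called 19 of 29 members, against 16.9% of all genes. NSDHL was 1 of the 2 members called within experiment 2: its values with FBS there were 9.68 and 10.14, against 9.29 and 9.28 in starved Rab25 and 9.79 and 9.63 in starved pcDNA cells. NSDHL rose by 0.41 (SE 0.09, limma adjusted p = 0.0147), with both FBS arrays above the starved arrays of their line. Without the pcDNA FBS array of experiment 2 neither NSDHL nor FASN was called, and 5 members were lower there (EBP, INSIG1, NPC1, SREBF1 and SREBF2); without the Rab25 one 6 were higher.

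A single FBS term over both experiments mixes these responses. In that fit 9 of 29 members fell and 0 rose, against 17.2% of all genes called and 10.8% called lower, and SREBF2 had the lowest p (-0.69, SE 0.13, limma adjusted p = 0.00182). The other 8 were FADS2, TM7SF2, CYP51A1, NPC1, SCD, SREBF1, MSMO1 and FDPS. With both Rab25 FBS arrays left out, 2 members fell, and the share of all genes in that fit is not given here. With an experiment term for each condition, 21 of 29 fell, against 28.1% of all genes called. Within pcDNA cells 0 of 29 passed the test (6.75% of all genes), with SREBF2 at -0.62 (adjusted p = 0.0506) and FADS2 at -0.53 (adjusted p = 0.0547) of lowest p. In limma 12 of 29 members and 2761 of 11940 genes had an unadjusted p under 0.05 there, and 806 genes passed the adjusted threshold. Within Rab25 cells 2 of 29 fell, SREBF2 (-0.77) and TM7SF2 (-0.66), against 7.72% of all genes. The response to FBS did not pass the test of a difference between the lines for any member (0 of 29, 0.209% of all genes), with PMVK (-0.31, 95% interval -0.58 to -0.03) and MVK (-0.32, 95% interval -0.71 to 0.07) of lowest p.

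Starved cells themselves differed between the experiments. In experiment 2, 9 members were higher than in experiment 1 and 1 was lower. The 10 called of 29 are near the 31.3% of all genes called, of which 1763 were higher and 1978 lower. TM7SF2, the lower one, had 8.78 and 8.58 in Rab25 and 8.32 and 8.39 in pcDNA cells in experiment 2, against 9.38 and 9.33 in Rab25 and 8.69 and 8.59 in pcDNA cells in experiment 1 (-0.48, SE 0.08, limma adjusted p = 0.000668). ACAT2 had 11.47 and 11.42 in Rab25 and 12.04 and 11.95 in pcDNA cells in experiment 2, against 11.15 and 11.02 in Rab25 and 11.30 and 11.24 in pcDNA cells in experiment 1 (0.54, SE 0.11). INSIG1 had 11.88 and 11.89 in Rab25 and 12.45 and 12.41 in pcDNA cells in experiment 2, against 11.31 and 11.35 in Rab25 and 11.94 and 11.95 in pcDNA cells in experiment 1 (0.52, SE 0.11). In each line the experiments, with 2 starved arrays each, did not overlap for these 3 genes. The share of all genes for which this held was not counted, so it does not set them apart. FASN (0.46), HMGCS1 (0.48), NSDHL (0.29), IDI1 (0.32), EBP (0.35), PMVK (0.20) and SQLE (0.27) were the others. For HMGCS1 the shift between starved experiments (0.48) was smaller than the fall with FBS in experiment 1 (-2.35). This did not hold for each of these genes: FASN had 0.46 and -0.44, and PMVK 0.20 and 0.13.

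The growth factors moved few members. With EGF, 0 of 29 passed the test and 0% of all genes did (0 genes at an adjusted p under 0.05 in limma, 811 at an unadjusted p under 0.05). No member had an unadjusted p under 0.05, and those of lowest p were SC5D (-0.13, 95% interval -0.32 to 0.06) and FADS2 (-0.16, 95% interval -0.40 to 0.08). With IGF 0 of 29 were called, against 2.71% of all genes, and 1 had an unadjusted p under 0.05. That one was TM7SF2 (-0.30, 95% interval -0.58 to -0.02, limma adjusted p = 0.271), and SC5D followed at -0.17. TM7SF2 had 8.66 and 8.65 with IGF in Rab25 cells and 8.22 and 8.31 in pcDNA cells in experiments 2 and 1, and its Rab25 array of experiment 1 lay 0.71 below its starved arrays. With an experiment term for each condition TM7SF2 passed the test (adjusted p = 0.0173). IGF and EGF did not differ by the test for any member (0 of 29, 0% of all genes), with ACACA at 0.09 (95% interval -0.13 to 0.31) and ELOVL6 at -0.05 of lowest p. At an unadjusted p under 0.05 limma gave 443 genes and 0 members.

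TGF beta changed 1 of 29 members, ELOVL6, which extends palmitate, against 1.6% of all genes. ELOVL6 had 9.11 and 9.12 with TGF beta in Rab25 cells in experiments 2 and 1 and 9.32 and 9.38 in pcDNA cells, against 9.48, 9.25, 9.51 and 9.38 in starved Rab25 and 9.65, 9.70, 9.55 and 9.49 in starved pcDNA cells. In each line both TGF beta arrays lay below all 4 starved arrays. The change was -0.27 (SE 0.05, limma adjusted p = 0.0131), and the other probe set of the gene gave -0.30. The call was lost with each array centred on its median, within either experiment alone, and without the TGF beta array of experiment 2 in either line. The responses to EGF, IGF and TGF beta were tested between the lines too, with 0 of 29 members and 0% of all genes called for each in limma, and 0 members but 415, 253 and 622 genes at an unadjusted p under 0.05. Of lowest p there were ELOVL6 for EGF (0.18, 95% interval -0.05 to 0.40), ELOVL6 for IGF (0.12, 95% interval -0.10 to 0.35) and SC5D for TGF beta (-0.30, 95% interval -0.67 to 0.07).

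Rab25 and pcDNA cells differed in a part of the pathway. Over all conditions 12 of 29 members passed the test, 9 lower and 3 higher, against 24.7% of all genes called, 15.5% lower and 9.14% higher. Estimates were below 0 for 24 of 29, with a median of -0.28, beside -0.01 over all genes. With an experiment term for each condition, an alternative added after the data were seen, 23 of 29 were called, 20 lower and 3 higher, against 32.3% of all genes. Leaving out the pcDNA FBS array of experiment 1 alone gave 24. In both fits the 3 higher genes were FADS2, FADS1 and TM7SF2. In this comparison 6 of 11 stroma and vessel markers and 4 of 12 macrophage and blood markers were also higher, and of 12 breast markers 2 were higher and 1 lower. With both Rab25 FBS arrays left out 13 members were called, 10 lower and 3 higher. Shares of all genes with arrays left out are not given here, so those counts do not set the members apart from other genes.

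SCD gave the widest of the called differences. It had 11.16, 12.64 and 12.79 as the lowest, median and highest of 12 Rab25 arrays, against 11.84, 13.35 and 13.52 of 12 pcDNA arrays. Without the 2 FBS arrays of experiment 1 the lines did not overlap, with 12.56 to 12.79 on 11 Rab25 arrays and 13.29 to 13.52 on 11 pcDNA arrays. The difference was -0.70 (SE 0.15, limma adjusted p = 0.00247), a 1.63-fold lower signal in Rab25 cells, below 0 in all 10 pairings of condition and experiment (-0.96 to -0.54).

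FADS2, which makes the first double bond in polyunsaturated synthesis, went the other way. It had 6.90, 7.46 and 7.89 on the Rab25 arrays (lowest, median, highest), against 6.30, 7.0 and 7.18 on the pcDNA arrays. That is 0.55 higher (SE 0.08, limma adjusted p = 5.3e-05), positive in all 10 pairings. FADS1, its partner in the same route, was 0.38 higher (SE 0.11, limma adjusted p = 0.0149), also in all 10. So within the desaturases SCD was lower and both FADS genes were higher in Rab25 cells.

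NPC1 had 11.50, 11.98 and 12.52 on the Rab25 arrays, against 12.05, 12.52 and 12.72 on the pcDNA arrays (-0.43, SE 0.07, limma adjusted p = 0.000334). SREBF1 had 6.90, 7.54 and 7.72, against 7.15, 7.94 and 8.14 (-0.42, SE 0.09, limma adjusted p = 0.0025). EBP had 9.36, 9.98 and 10.25 on the Rab25 arrays, against 9.40, 10.35 and 10.87 on the pcDNA arrays (-0.35, SE 0.09). The ranges of all 3 overlapped between the lines. Without the FBS arrays of experiment 1, LSS, SREBF1 and SCD were lower on every Rab25 array than on every pcDNA array, as were 1.22% of all genes, and FADS2 was higher, as were 1.05%. TM7SF2 had 8.19, 8.72 and 9.38 on the Rab25 arrays, against 7.95, 8.35 and 8.69 on the pcDNA arrays, and was 0.44 higher (SE 0.09, limma adjusted p = 0.00175). The other called members were MVD (-0.54), LSS (-0.47), FASN (-0.37), SREBF2 (-0.32) and ELOVL6 (-0.14), all lower in Rab25 cells, and the other probe set of ELOVL6 gave 0.02.

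**Figure D4:**
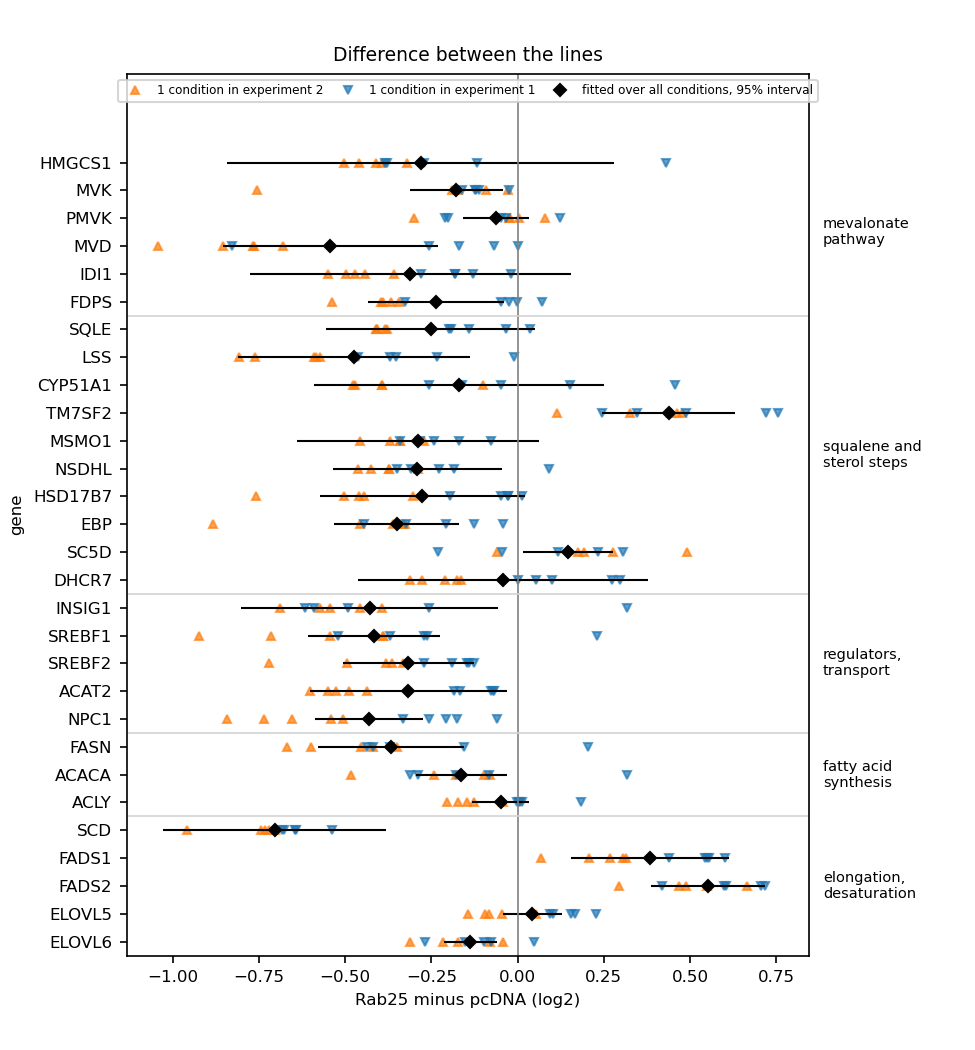
Rab25 minus pcDNA (log2, x axis) for each gene (y axis): small triangles give the difference in each of the 5 conditions of experiment 2 (orange) and experiment 1 (blue), and black diamonds the fitted difference over all conditions with its 95% confidence interval. SCD lies at -0.70, FADS2 at 0.55 and TM7SF2 at 0.44, and 24 of the 29 diamonds lie below 0.

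Rab25 was below pcDNA in all 10 pairings of condition and experiment for 10 members, which held for 9.97% of all genes, and above in all 10 for 3, which held for 5.8% of all genes. Those below were MVK, MVD, IDI1, LSS, MSMO1, EBP, SREBF2, ACAT2, NPC1 and SCD. In starved cells ACAT2 differed by -0.55 in experiment 2 and -0.18 in experiment 1, and MVD by -0.77 and -0.26. The change of the line difference between experiments was not tested. With FBS in experiment 1, several members with a fitted difference below 0 had higher values in Rab25 than in pcDNA cells, the widest being CYP51A1 (0.46), HMGCS1 (0.43), ACACA (0.32), INSIG1 (0.32), DHCR7 (0.30), SREBF1 (0.23) and FASN (0.20). These are differences between 1 array per line, and the Rab25 array carries the markers of other tissues.

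In starved cells alone, 5 of 29 members were called, which is near the 14.8% of all genes called. These were NPC1 (-0.46), SREBF1 (-0.53) and ELOVL6 (-0.19), lower, and TM7SF2 (0.52) and FADS2 (0.45), higher in Rab25 cells. SCD, at -0.71 (95% interval -1.25 to -0.17, limma adjusted p = 0.0743), was not called. Leaving out any 1 starved array other than Rab25 2-1 brought the count to between 1 and 3, and leaving out either pcDNA FBS array gave 14. With an experiment term for each condition 18 were called, 15 lower and 3 higher, against 24.2% of all genes. Shares of all genes with single arrays left out are not given here, so those counts do not set the members apart from other genes.

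Neighbouring genes of the same metabolism were drawn from 4 lists. Between the lines, where 24.7% of all genes were called, 3 of 9 genes of SREBP processing passed the test (1 higher), 2 of 11 of the isoprenoid branch (0 higher), 10 of 19 of sterol uptake, esterification, transport and efflux (2 higher), and 15 of 29 of fatty acid and glycerolipid metabolism (4 higher). Of lowest p were HSD17B12 (0.55), which acts in elongation, ABCA1 (-1.02), which exports cholesterol, NPC2 (-0.38), the lysosomal partner of NPC1, and VLDLR (-1.03), a lipoprotein receptor. With FBS in experiment 2, where 8.25% of all genes were called, the lists gave 2 of 9, 2 of 11, 2 of 19 and 1 of 29 calls, with LPIN2 (-0.41), PDSS1 (0.36), SCARB1 (0.33) and VLDLR (-1.05) of lowest p. With FBS in experiment 1, where 34.1% of all genes were called, they gave 4 of 9, 7 of 11, 8 of 19 and 17 of 29 calls, of which 2, 2, 3 and 7 were higher. There LPIN1 (-1.10) and LPIN2 (-0.65), phosphatidate phosphatases, OSBP (-0.63), an oxysterol-binding protein, and ZMPSTE24 (-0.53), a prelamin protease, had the lowest p. These lists had calls in both directions with FBS in experiment 1, with medians between -0.22 and 0.02.

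Several genes had more than 1 probe set, and these were read one by one. With FBS in experiment 1, 16 of the 23 members that fell had 24 other probe sets in all, and all 24 gave a lower mean too. HMGCS1 gave -2.60 and -2.70 on its others, INSIG1 -1.41 and -1.67 and SQLE -1.55 and -1.54. These read the same RNA and were counted for called members only. Of members not called, other probe sets went the other way for ACLY (0.12 on both, against -0.12) and ACACA (-0.08, against 0.27). Those of ELOVL5 and ELOVL6 went the same way. With FBS in experiment 2 the other probe set gave 0.39 for NSDHL and -0.10 for FASN, the latter at a mean signal of 5.26. Between the lines, 11 of 12 other probe sets of the called members had the same direction, the exception being ELOVL6. As a measure of RNA quality, the 3′ minus 5′ signal of the GAPDH control probe sets was 0.26 to 0.29 on the FBS arrays of experiment 2 and 0.24 to 0.30 on those of experiment 1, against 0.25 to 0.36 and 0.23 to 0.43 on the starved arrays. For actin it was 0.63 to 0.74 and 0.72 to 0.74 with FBS, against 0.68 to 0.93 and 0.76 to 1.17 in starved cells; the part of this lower actin value in the results was not tested.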

How the data were processed

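Expression was measured on 24 Affymetrix arrays of an early access design. The values are log2 signals of probe sets as the authors deposited them, with no further scaling; MAS5 and RMA stand in the submitters' processing notes without version, role or order, so the normalization and the genome build are not given in the sources used here. Of 22930 probe sets, 524 were controls, 19415 had 1 gene symbol, 125 several and 2866 none. The probe set of highest mean stood for each of 11940 genes. The number of arrays limits the precision.

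All genes entered 1 linear model in limma 3.58.1 under R 4.3.3 (10 groups and an experiment term, 13 residual degrees of freedom, Benjamini-Hochberg over all genes, threshold 0.05). A second fit held an experiment term for each condition. The labels number the experiments, which pair the arrays across groups and served as the block; over genes, experiment deviations correlated in 45 group pairs with a lowest r of 0.09 and a median of 0.66. The fits were tested on simulated data. Members and lists were chosen with earlier results of these data known. Values on each array are given for up to 6 called members of lowest p per comparison, and the 2 of lowest p stand where none was called; of the neighbour lists, up to 4 called genes of lowest p are named. Alternatives were no block, quantile normalization, array medians, array weights, a trend with robust prior, the median probe set, a filter on the lowest 40% of genes, each experiment alone, and leaving out arrays. Promoter windows came from RefSeq (GRCh38.p14), matched by symbol.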

Additional observations from a re-analysis of the deposited data

Results flagged for a closer look

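In 58 groups of 4 starved arrays (29 genes in 2 lines), 2 arrays stood apart from the other 3 of their group. Chance marks about 1 in 20 groups of 4 like arrays. Each group here joins 2 experiments, so that rate need not hold. MVK had 7.91 on Rab25 starved array 1-2, against 8.14 to 8.18 on the other 3. SREBF2 had 9.24 on Rab25 starved array 2-2, against 9.15 on each of the others.

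The response to FBS differed between the experiments for 20 members by the test of the difference itself (FBS response in experiment 2 minus that in experiment 1, limma adjusted p from 3.3e-07 to 0.0197), and the value was positive for all 20. Among the mevalonate genes it was 2.76 for HMGCS1, 2.29 for IDI1, 1.04 for MVD and 0.80 for FDPS. Among the sterol genes it was 2.03 for CYP51A1, 1.93 for DHCR7, 1.74 for MSMO1, 1.59 for LSS, 1.47 for SQLE, 1.25 for HSD17B7, 1.21 for NSDHL, 0.88 for TM7SF2 and 0.70 for EBP. The regulators gave 1.61 for INSIG1, 1.24 for ACAT2 and 0.83 for SREBF2, and the fatty acid genes 1.51 for SCD, 0.95 for FADS1, 0.94 for FASN and 0.65 for FADS2. Exposure time, as the treatment protocol gives it, and experiment cannot be told apart here.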

How the results depend on the processing

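Counts of called members moved by over 1.5 times under these alternatives, and the cause was not tested. The share of all genes called moved too. With an experiment term for each condition it went from 24.7% to 32.3% for the lines over all conditions. For the lines in starved cells it went from 14.8% to 24.2%, and for FBS over both lines from 17.2% to 28.1%. Shares under the other alternatives are not given here, so these counts alone do not set the members apart from other genes. For the lines over all conditions (12), leaving out all 4 FBS arrays gave 24, an experiment term for each condition 23 and experiment 2 alone 24. For the lines in starved cells (5), these gave 20, 18 and 17, array weights 16, experiment 1 alone 10, quantile normalization 3 and no replicate block 0. IGF (0) gave 1 without the FBS arrays, with the experiment terms or with experiment 1 alone, and TGF beta (1) gave 0 with centred arrays or either experiment alone. FBS over both lines (9) gave 21 with the experiment terms, 1 with array weights, 2 without both Rab25 FBS arrays, 5 with centred arrays, 24 in experiment 1 alone, 4 in experiment 2 alone and 2 with no replicate block. FBS in pcDNA cells (0) gave 17 with the experiment terms, 2 without both Rab25 FBS arrays, 23 in experiment 1 alone, 1 in experiment 2 alone, 2 with the lowest 40% of genes left out and 1 with a trend and robust prior. FBS in Rab25 cells (2) gave 18 with the experiment terms, 0 with array weights or no replicate block, 21 in experiment 1 alone, and 1 each with centred arrays, experiment 2 alone, median probe sets or quantile normalization. The FBS line difference (0) gave 1 in experiment 1 alone, and FBS in experiment 2 (2) gave 4 without both Rab25 FBS arrays.

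Leaving out 1 array at a time gave 11 to 24 for the lines, 1 to 14 for the starved lines, 0 to 1 for TGF beta, 2 to 23 for FBS over both lines, 0 to 23 in pcDNA and 0 to 9 in Rab25 cells, 0 to 1 for the FBS line difference, 7 to 11 for starved experiments, 14 to 19 for the F test, 1 to 6 and 18 to 24 for FBS in experiments 2 and 1, and 19 to 22 for their difference. EGF, IGF, IGF minus EGF and the EGF, IGF and TGF beta line differences gave 0 throughout. CYP51A1 (0.0229), MSMO1 (0.12) and SCD (0.0242) changed direction for FBS in experiment 2 alone. Of the other values of called members, 3070 kept direction and call and 252 lost the call. Alternatives by array or by experiment term were chosen after seeing the data. SC5D, near background, limits what can be said of it.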
